A study of Drosophila melanogaster with 3 samples.

Results

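The regions described here are the CG2120-eGFP binding summits that lay in divergent promoters, the short stretches of DNA from which a pair of neighbouring protein coding genes is transcribed in opposite directions. A peak of the optimal list counted as one when its summit was within 500 bp of the transcription start sites (TSSs) of a minus-strand gene and a plus-strand gene that point away from each other, with those TSSs at most 500 bp apart. Of the 8340 optimal peaks, 1302 (15.6%) met this rule. The rule uses position only, so signal and rank were free to vary among them. Their sequence is DNA near TSSs by the rule.

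The study is a chromatin immunoprecipitation and sequencing (ChIP-seq) experiment on whole Drosophila melanogaster embryos 18 to 24 h old, from a transgenic line that stably expresses CG2120 with GFP at its C-terminus. The labels give 1 line, 1 group and 3 biological replicates, with sonicated chromatin of 200 to 800 bp and an antibody against GFP. All replicates carry the fusion and share 1 control, so there is no group without the fusion to compare with. The labels do not say whether the embryos also had an untagged CG2120. Whole embryos mix all cell types, and binding in few cells cannot be told apart from weaker binding in many.

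CG2120 (FBgn0030005, dm6, X:8135824 to 8137046, plus strand) encodes a protein of the C2H2 zinc finger class, in which each finger folds around a zinc ion and can contact DNA. Head-to-head gene pairs are common in the compact fly genome, and many of their genes are housekeeping genes. The DNA between their TSSs is typically poor in nucleosomes and carries short core promoter motifs such as the DNA replication-related element (DRE), which the factor Dref binds. One such interval can serve both genes or can hold a separate promoter for each.

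The sequences of 8 of the strongest of these summits show what the protein was found on. They are the 8 with the highest signal among the 591 summits whose whole 81 bp window lay between the paired TSSs, outside annotated exons and on the arms 2L, 3L, 3R, 4 or X. Each line is the plus strand of the release 6 assembly (dm6), 5′ to 3′, with the summit at its centre. Capitals mark matches, on either strand, to any of 8 promoter motifs that are spelled out with the motif results.
Tcs5 and CHMP2B, chr3L:5139459-5139539: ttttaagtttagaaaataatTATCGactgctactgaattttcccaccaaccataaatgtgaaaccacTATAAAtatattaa
Art3 and mRpS10, chr3R:15229490-15229570: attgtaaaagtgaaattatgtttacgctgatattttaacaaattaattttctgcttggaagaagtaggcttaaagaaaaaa
mRpS23 and CenG1A, chr2L:13835401-13835481: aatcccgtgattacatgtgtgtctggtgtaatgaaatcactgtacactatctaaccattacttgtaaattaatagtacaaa
Atat and Shc, chr3L:9426852-9426932: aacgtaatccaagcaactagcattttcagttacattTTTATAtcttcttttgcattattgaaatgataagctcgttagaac
CG5611 and Mtl, chr3R:27636160-27636240: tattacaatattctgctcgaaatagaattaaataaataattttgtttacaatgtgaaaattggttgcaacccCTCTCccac
Mkk4 and SLIRP2, chr3R:8650918-8650998: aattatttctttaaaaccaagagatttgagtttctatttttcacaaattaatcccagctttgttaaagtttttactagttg
Coq4 and CG32176, chr3L:17433742-17433822: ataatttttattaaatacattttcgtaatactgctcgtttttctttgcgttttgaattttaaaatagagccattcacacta
Lon and PIG-F, chr3L:19612267-19612347: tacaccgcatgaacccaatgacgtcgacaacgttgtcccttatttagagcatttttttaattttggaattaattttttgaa
These windows are rich in A and T. Their GC content was between 24.7% and 33.3%, and the windows of Art3, mRpS23, Mkk4, Coq4 and Lon hold none of the motifs.

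The next 4 windows show what the motifs look like at a summit. They were chosen for a DRE, an Ohler motif 1 core, an Ohler motif 7 core and an E-box, each from the 2 strongest eligible windows with that motif, and are marked in the same way.
dsd and Tusp, chr3R:27607399-27607479: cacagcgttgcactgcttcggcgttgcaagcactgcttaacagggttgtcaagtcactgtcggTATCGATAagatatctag
fs(1)h and mys, chrX:8061545-8061625: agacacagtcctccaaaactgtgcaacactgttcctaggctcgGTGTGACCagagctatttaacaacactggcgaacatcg
bigmax and Hmu, chr3R:27288623-27288703: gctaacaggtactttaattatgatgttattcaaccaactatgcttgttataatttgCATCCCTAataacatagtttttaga
Keap1 and kuk, chr3R:17079954-17080034: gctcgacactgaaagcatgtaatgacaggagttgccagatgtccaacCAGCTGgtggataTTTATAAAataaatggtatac
Their signal values in the optimal list were 602.76 for dsd and Tusp, 623.74 for fs(1)h and mys, 1065 for bigmax and Hmu, and 496.94 for Keap1 and kuk. They were picked for their motifs, so their signal says nothing of how motif and signal go together.

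Most head-to-head gene pairs of the genome held a summit. The annotation has 13968 protein coding genes, of which 3815 (27.3%) belong to at least 1 of 1995 divergent pairs. A summit within 500 bp of both TSSs was present at 1225 pairs, which is 61.4% of them (exact 95% interval 59.2 to 63.5). The share was 61.0% in the strongest 8340 peaks of replicate 1, 61.7% in those of replicate 2 and 59.9% in those of replicate 3. These replicate lists also went into the optimal list, so they show the spread between replicates and are not separate experiments.

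Genes in divergent pairs had a promoter summit more often than other genes. Of all protein coding genes, 34% had an optimal summit within 500 bp of a TSS. The share was 63.8% of the genes in divergent pairs (2433 of 3815) and 22.8% of the other genes (2314 of 10153), a difference of 40.98 percentage points. In the replicates the difference was 40.5, 40.8 and 40.3 points, or 40.5 ± 0.274 (SD, n = 3), above 0 in 3 of 3 (exact sign-flip permutation test, two-sided, p = 0.25, the smallest that 3 replicates can give). A summit in a divergent promoter counts for both genes of the pair, so genes are not independent here. A gene in a pair can also count through a summit at its neighbour's promoter, which raises the share of genes in pairs by construction. The part of this in the difference was not tested. Seen from the peaks, divergent promoters held 31.6% of the 4120 summits that lay within 500 bp of any protein coding TSS.

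Most occupied pairs held a single summit. There was 1 summit at 1051 pairs, 2 at 173 pairs and 3 at 1 pair, dup and SRPK, which encode the replication licensing factor Cdt1 and a kinase of splicing factors. These are gene pairs, and summits of 1 gene pair can lie at different TSS pairs of its genes. The 3 summits of dup and SRPK had signal values of 726.77, 210.24 and 148.79. The one with 210.24 was nearest to TSSs 461 bp apart, and the others to a different TSS pair, 110 bp apart. The one with 726.77 ranked 919, 636 and 1139 in replicates 1, 2 and 3, and the one with 148.79 had no peak within 100 bp in replicate 3. In the whole optimal list no 2 neighbouring summits were closer than 199 bp, so 2 binding positions nearer than that would appear as 1. In pairs with more than 1 summit the smallest spacing had a median of 204 bp, close to that floor, and reached 1893 bp. Whether such summits are separate binding positions was not tested. Another 65 summits served more than 1 gene pair, and 1 of them, at mod(mdg4), served 21.

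The share of pairs with a summit varied with the distance between their TSSs, and the relation was not a steady one. A gene pair with several TSS pairs was placed by its smallest distance. A summit at any of its TSS pairs counted, so it need not lie at the TSSs that set the distance. The counts that follow leave out 42 pairs of the repeated histone genes, none of which held a summit, and 37 pairs of mod(mdg4) units, of which 21 held one. This choice was made after the values were seen. Of the remaining 1916 pairs, 62.8% held a summit. The share was 70.0% of 754 pairs with TSSs 201 to 350 bp apart (exact 95% interval 66.6 to 73.3), with 68.8%, 69.6% and 68.4% in replicates 1, 2 and 3. It was 56.6% of 737 pairs with a shorter distance (52.9 to 60.2), with 55.2%, 57.9% and 54.4% in the replicates. It was 60.9% of 425 pairs with a longer distance (56.1 to 65.6), with 59.8%, 60.5% and 60.5%. All 3 replicates were highest in the middle range, which was drawn from the plot of these shares, so no test of it is given.

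**Figure D1:**
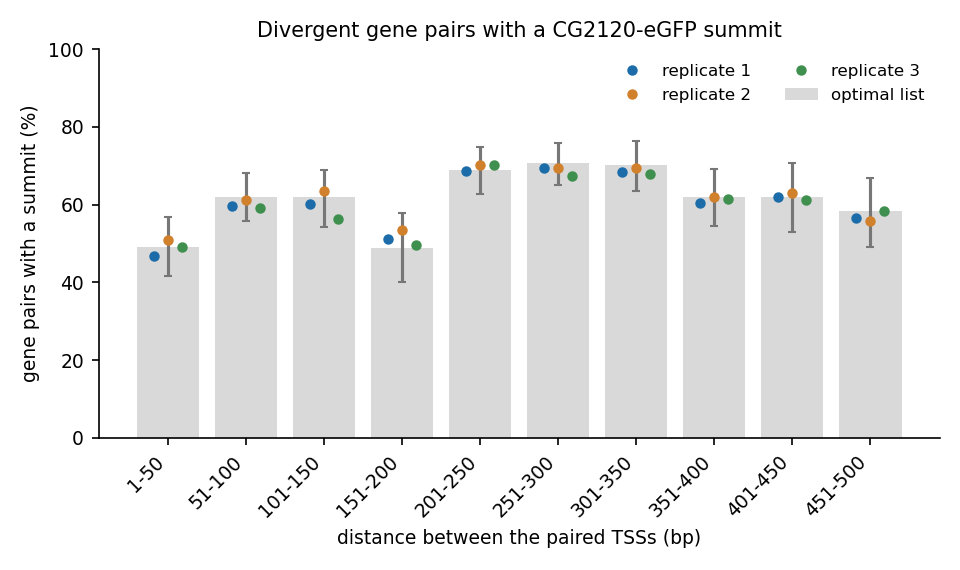
Share of divergent gene pairs (%) with a summit within 500 bp of both TSSs, by the distance between the paired TSSs in bp, without the repeated histone and mod(mdg4) pairs. The distance is the smallest among the TSS pairs of a gene pair, and a summit at any of them counts. Bars are the optimal list with exact 95% binomial intervals and points are the strongest 8340 peaks of each replicate. The bars from 201 to 350 bp lie between 69.0% and 70.7%, and the lowest are 49.2% at 1 to 50 bp and 48.9% at 151 to 200 bp.

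The closest pairs and those at 151 to 200 bp stood low. Of 177 pairs with TSSs at most 50 bp apart, 49.2% held a summit (41.6 to 56.8), and of 131 pairs at 151 to 200 bp, 48.9% did (40.03 to 57.7). With the histone pairs kept, the share at 151 to 200 bp was 43.0% of 149. The replicates gave 46.9%, 50.8% and 49.2% for the closest pairs and 51.1%, 53.4% and 49.6% for those at 151 to 200 bp. Pairs at 51 to 100 bp and at 101 to 150 bp were between these and the middle range, at 62.1% and 61.9%.

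Most summits lay between the paired TSSs. The rule itself leaves a member only the stretch within 500 bp of both TSSs, and on average 39.5% of that stretch was between them. Where several TSS pairs qualified, the pair with the smallest summed distance to the summit was used. On this basis 1048 of 1302 summits (80.5%, exact 95% interval 78.2 to 82.6) were between the TSSs, with 79.0%, 79.6% and 78.2% in the replicates. Counting a summit as between when it was so for any qualifying TSS pair gave 89.3%, with 87.9%, 88.0% and 87.4% in the replicates. The latter count was added after simulated summits showed that the choice of the nearest pair can place a summit outside a TSS pair that encloses it.

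**Figure D2:**
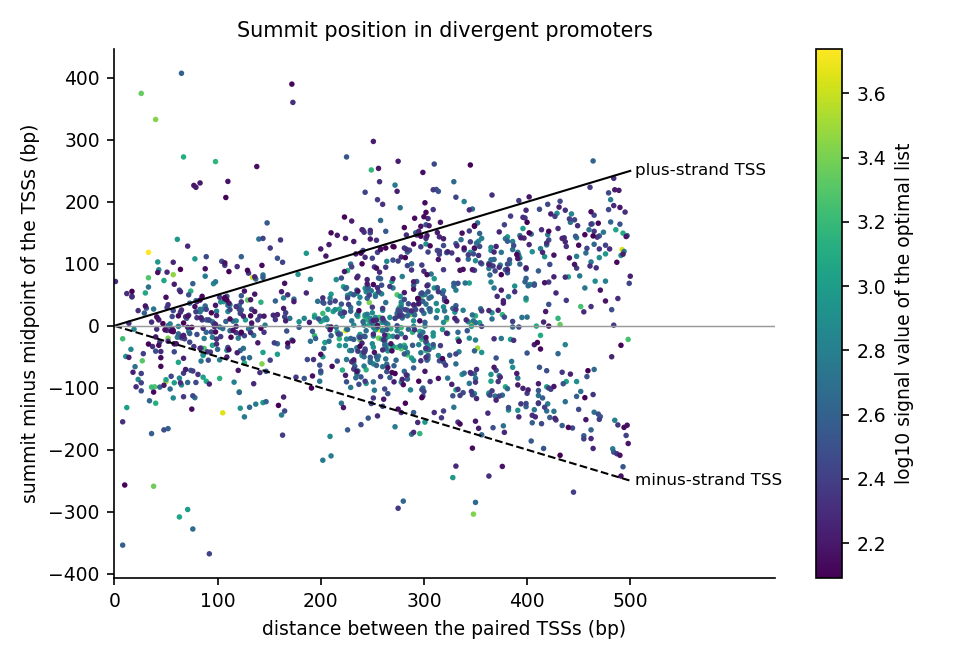
Distance of each of the 1302 summits from the midpoint of its TSS pair (bp, positive towards the plus-strand TSS) against the distance between those TSSs (bp), coloured by log10 of the signal value in the optimal list. The lines mark the plus-strand and minus-strand TSS. The share of summits within 50 bp of the midpoint is 54.9% at 1 to 100 bp, 57.4% at 101 to 200 bp and 50.5% at 201 to 300 bp. It is 28.8% at 301 to 400 bp and 12.2% at 401 to 500 bp, where summits fall to either side of the midpoint. A window of fixed size covers a smaller part of a wider interval.

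The place within the interval changed with its length, in part because the rule leaves less room outside wide intervals. For TSSs 201 to 300 bp apart, the 414 summits lay a median of 134 bp upstream of the minus-strand TSS and 120 bp upstream of the plus-strand TSS, close to the midpoint. For TSSs 401 to 500 bp apart, the 197 summits lay a median of 131 bp off the midpoint. Of these, 98.5% were between the TSSs, as was 81.5% of the stretch open to them. They lay a median of 90 bp upstream of the nearer TSS, close to the 87 bp at 301 to 400 bp and the 75 bp at 201 to 300 bp. For TSSs at most 100 bp apart 42.2% of 206 summits were between them, against 6.54% of the open stretch, and the median summit was 14.5 bp downstream of one of the TSSs.

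Summits leaned towards the plus-strand TSS. It was the nearer one for 717 of 1302 summits (55.1%, exact 95% interval 52.3 to 57.8), with 55.7%, 55.8% and 55.6% in the replicates. The share was 43.7% at TSS distances up to 100 bp and 60.4% at 301 to 400 bp. Above 300 bp it was 64.8% (212 of 327) in pairs with 1 summit and 52.2% (97 of 186) in pairs with more. With summits required within 200 bp of each TSS the share was 49.7%, which is not above 50%. At promoters with no opposite TSS within 1000 bp, the median summit lay 104 bp upstream of 1103 plus-strand TSSs and 113 bp upstream of 1227 minus-strand TSSs. A cause for the lean was not tested.

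Summits in divergent promoters were stronger than those at other promoters. Their signal values ran from 123.55 to 5460.3 with a median of 320.71, and the median was 252.81 at the 2818 other promoter summits and 212.89 at the 4220 summits outside promoters. As a rank within the list, the median member was at percentile 64.8, the median other promoter summit at 53.8 and the median summit outside promoters at 43.4. The difference to other promoters was 10.98 percentile points in the optimal list and 10.8, 11.98 and 12.7 in the replicates, or 11.8 ± 0.954 (SD, n = 3), above 0 in 3 of 3 (exact sign-flip permutation test, two-sided, p = 0.25, the smallest possible). The median peak width was 450 bp in both classes, and the medians were equal in each replicate too. Exactly this width was deposited for 42.2% of members and 52.1% of other promoter peaks. Equal medians thus do not show that the widths were alike.

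The strongest peaks were the richest in divergent promoters. They made up 28.1% of the 834 peaks with the highest signal and 9.59% of the 834 with the lowest. Of the 1000 strongest peaks 276 were members, and among the 1000 strongest of each replicate 270, 273 and 274 were. The signal also varied with the TSS distance, with a median of 402.61 at 201 to 300 bp against 278.81 at up to 100 bp and 266.01 at 401 to 500 bp.

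**Figure D3:**
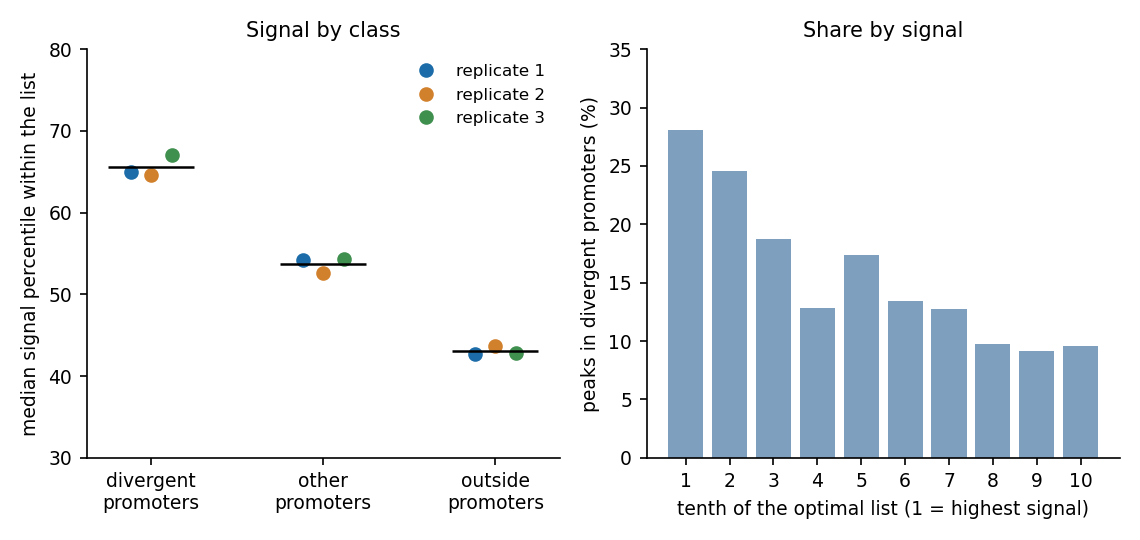
Left, median percentile by signal within each replicate's strongest 8340 peaks (100 is the strongest) for summits in divergent promoters, in other promoters and outside promoters, with the mean of the 3 replicates as a line. Right, share of peaks (%) that are in divergent promoters in 10 groups of 834 peaks ordered by signal in the optimal list, from 28.1% in the strongest group to 9.59% in the weakest.

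Most members had a peak nearby in the lists of the single replicates. The optimal list was made from these replicates, so the recovery and the agreement of ranks are not a separate check of the members. A peak among the strongest 8340 lay within 100 bp of 89.4% of the members in replicate 1, 92.7% in replicate 2 and 87.9% in replicate 3. All 3 replicates held 77.5% of the members, against 71.6% of other promoter summits and 70.4% of all optimal peaks. Members also had a higher median signal than other promoter summits, 320.71 against 252.81, and the part of signal in this recovery was not tested. Where a member was found in every full list, its summit moved by a median of 33 bp between replicates. The Spearman correlation between the ranks of the members was 0.94 in replicates 1 and 2, 0.93 in 1 and 3 and 0.92 in 2 and 3, over at least 1219 members and with the control shared. Each of the 100 strongest members was among the 1000 strongest peaks of every replicate.

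The highest signal in a divergent promoter belonged to Pex11ab, a gene of peroxisome division, and CG8320 (2R:15992222 to 15992772). Its signal was 5460.3, and it ranked 5, 6 and 5 in replicates 1, 2 and 3. The TSSs are 33 bp apart and the summit lay 102 bp downstream of that of CG8320, outside the interval. Next came Tcs5, which acts in a tRNA modification, and the ESCRT-III gene CHMP2B (3L:5139225 to 5139745), with a signal of 5020.5 and ranks of 6, 9 and 7. Here the summit was between the TSSs, 104 bp from the first and 120 bp from the other.

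Mitochondrial ribosomal protein genes took 3 of the 9 leading places. The summit of the arginine methyltransferase gene Art3 and mRpS10 (3R:15229270 to 15229794) had a signal of 4712.4 and ranks of 10, 12 and 12. That of mRpS23 and CenG1A (2L:13835053 to 13835736) had 4570.3 and ranks of 12, 11 and 16. Its TSSs are 492 bp apart, and the summit was 123 bp upstream of CenG1A and 369 bp upstream of mRpS23. The summit of mRpL23 and CG9004 (3L:2373378 to 2373835) had 3431.6 and ranks of 33, 34 and 34, and lay 65 bp downstream of the TSS of mRpL23.

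Other leading pairs join genes of unlike roles. Chro, which encodes the chromatin protein Chromator, is paired with Ssl1, which encodes a subunit of the general factor TFIIH (3L:22878644 to 22879164). Their summit had a signal of 4519.2, ranked 18, 13 and 13, and lay 88 bp downstream of the TSS of Chro. Atat, a tubulin acetyltransferase gene, is paired with Shc, a gene for an adaptor of receptor tyrosine kinases (3L:9426606 to 9427131), at a signal of 4409.1 and ranks of 19, 19 and 8. Replicate 3 placed this pair higher than the others did.

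Pdrg1 and Pal1, the latter a gene of neuropeptide amidation, had a summit with a signal of 4190.2 and ranks of 21, 15 and 17. Fbw5 and CG9147 had 3932.4 and ranks of 22, 21 and 25. CG5611 and Mtl had 3202.3 and ranks of 44, 41 and 39. This last pair held another summit, at 496.79 and ranks of 6005, 1638 and 1187, so the replicates agreed on the strong summit and spread widely on the weak one.

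**Figure D4:**
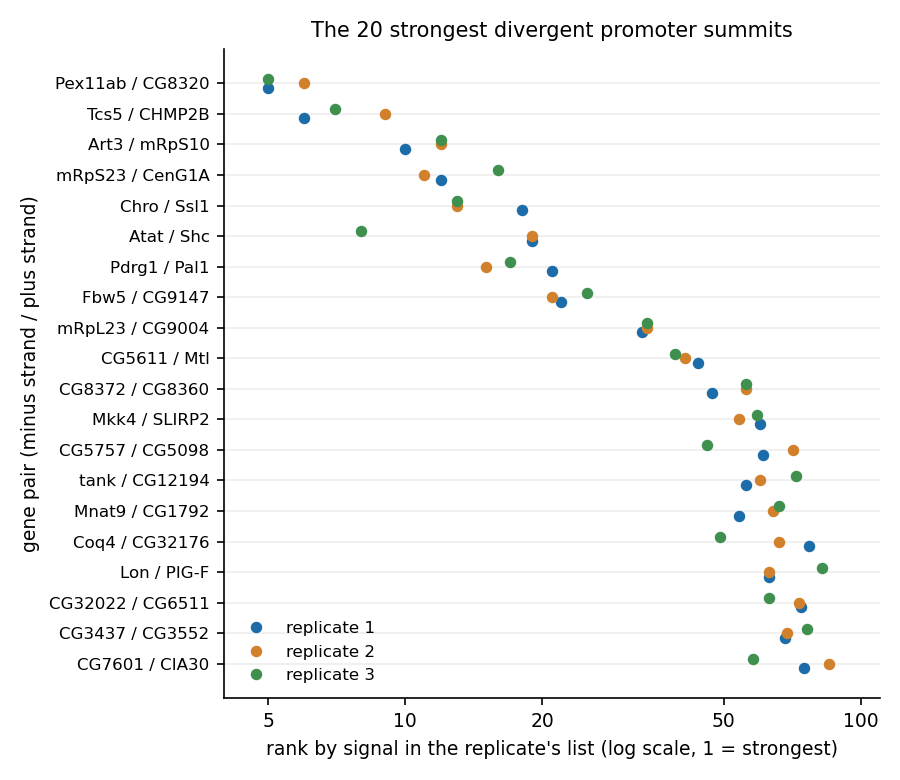
Rank by signal in each replicate's own list (log axis, 1 is the strongest) of the 20 strongest summits in divergent promoters, named by minus-strand and plus-strand gene. Points are the 3 replicates, and all of them lie between rank 5 and rank 85.

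The remaining 10 of the 20 strongest members had signal values from 2489 to 2857. They belong to CG8372 and CG8360, the MAP kinase kinase gene Mkk4 and SLIRP2, CG5757 and CG5098, tank and CG12194, Mnat9 and CG1792, the ubiquinone synthesis gene Coq4 and CG32176, the mitochondrial protease gene Lon and PIG-F, CG32022 and CG6511, CG3437 and CG3552, and CG7601 and CIA30. Of the 20, 13 lay between the nearest TSS pair and 16 between any qualifying pair. Of the same 20, 10 have TSSs 201 to 350 bp apart and 11 lay within 50 bp of the midpoint.

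The lowest 5 members were at the edge of the optimal list, whose threshold sets where they end. Rhau and dia had a signal of 123.81 and eIF2Bepsilon and Ocrl 123.79. CG32313 and Pcyt1 had 123.67, Tsf2 and CG34242 123.58, and CG17266 and Rpp25 123.55. Their ranks in the replicates spread widely, as for Tsf2 and CG34242 at 9700, 6566 and 14933. Few summits lay near the limit on the distance from summit to TSS. There were 13 members that had their farther TSS more than 450 bp away, against 9 summits just outside the limit at 501 to 550 bp. The limit on the distance between TSSs ran through a denser range. There were 90 members with TSSs 451 to 500 bp apart, and 69 summits at pairs 501 to 550 bp apart, with median signals of 255.77 and 294.78.

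Genes of several basic cell machines sit in divergent pairs and mostly had a summit there. The comparison value is the 61.4% of all 3815 genes in pairs that had a summit within 500 bp of both TSSs (2344 genes). A list gene said to have none may still have a summit elsewhere, as 2433 genes in pairs had one within 500 bp of a TSS. Of 73 mitochondrial ribosomal protein genes, 53 are in divergent pairs, and 42 of those (79.2%) had a summit, with 43, 43 and 41 in the replicates. Those without included mRpL15, mRpL22 and mRpS28. Of 87 cytoplasmic ribosomal protein genes 35 are in pairs, and 29 (82.9%) had a summit. RpL34b led with 1546.8 and ranks of 195, 189 and 188, then RpS20 with 1305 and RpL7 with 1166, while RpS13 and RpS28a had none.

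Genes of chromatin and transcription were similar. Of 19 Polycomb and Trithorax group genes in pairs 16 (84.2%) had a summit, led by the remodelling ATPase gene brm, paired with Arl1, at 1419.5 and ranks of 203, 274 and 199. Neither ash1 nor ash2 had a summit within 500 bp of both TSSs of a pair. Of 39 genes of general transcription factors and RNA polymerase subunits 30 (76.9%) had one, led by Ssl1 and then by Polr2H at 1282.6 and Polr2J at 983.62. Insulator and architectural protein genes had one in 6 of 8 cases. The insulator gene Cp190, paired with CG4338, had a signal of 1419.8 and ranks of 241, 229 and 196, and Dref, paired with RpL13, had 573.41. Mediator genes had one in 10 of 19 cases (52.6%), with 11, 10 and 11 in the replicates. This is not far from the 61.4% of all genes in pairs. Among them MED30 and MED27 reached 2029.7 and 1671.2.

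Membrane traffic and autophagy genes in pairs mostly had a summit too. Vesicle coat and exocyst genes had a summit in 34 of 44 cases (77.3%), among them Vps33B, paired with Fur1, at 2244.9 and ranks of 96, 101 and 75, and alphaCOP at 1544. Autophagy genes had one in 11 of 12 cases (91.7%), with Atg17 at 1273, Atg2 at 1076.1 and Atg18a at 918.42, and Atg10 without one. Vacuolar ATPase genes had one in 9 of 13 cases (69.2%) and Rab genes in 11 of 15 (73.3%). These small counts are nearer to the 61.4% of all genes in pairs. Proteasome genes, with 16 of 24 (66.7%), and spliceosome genes, with 17 of 26 (65.4%), were near the share of all genes in pairs. DNA replication and cell cycle genes, with 17 of 31 (54.8%), and translation factor genes, with 11 of 20 (55%), were a little under it. The symbol pattern of the former also took in Cdk5, Cdk9 and CycC, the last of which is in the Mediator list too. None of these had a summit there, so the low share rests in part on them. Respiratory chain and ATP synthase genes had a summit in 26 of 38 cases (68.4%), led by ND-MWFE at 1354.6, and aminoacyl-tRNA synthetase genes in 15 of 22 (68.2%), led by SerRS at 1720.9. The count was 15 of 20 for RNA exosome and ribosome biogenesis genes, 14 of 18 for DNA repair genes, 11 of 15 for kinetochore and spindle genes, 11 of 17 for nuclear pore genes, 9 of 13 for genes of Arp2/3, dynactin and tubulin chaperones, 7 of 8 for chaperonin and prefoldin genes, 6 of 8 for peroxisome genes, 4 of 6 for mitochondrial import genes and 3 of 6 for heat shock protein genes. The lists are small and no test was made of any.

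**Figure D5:**
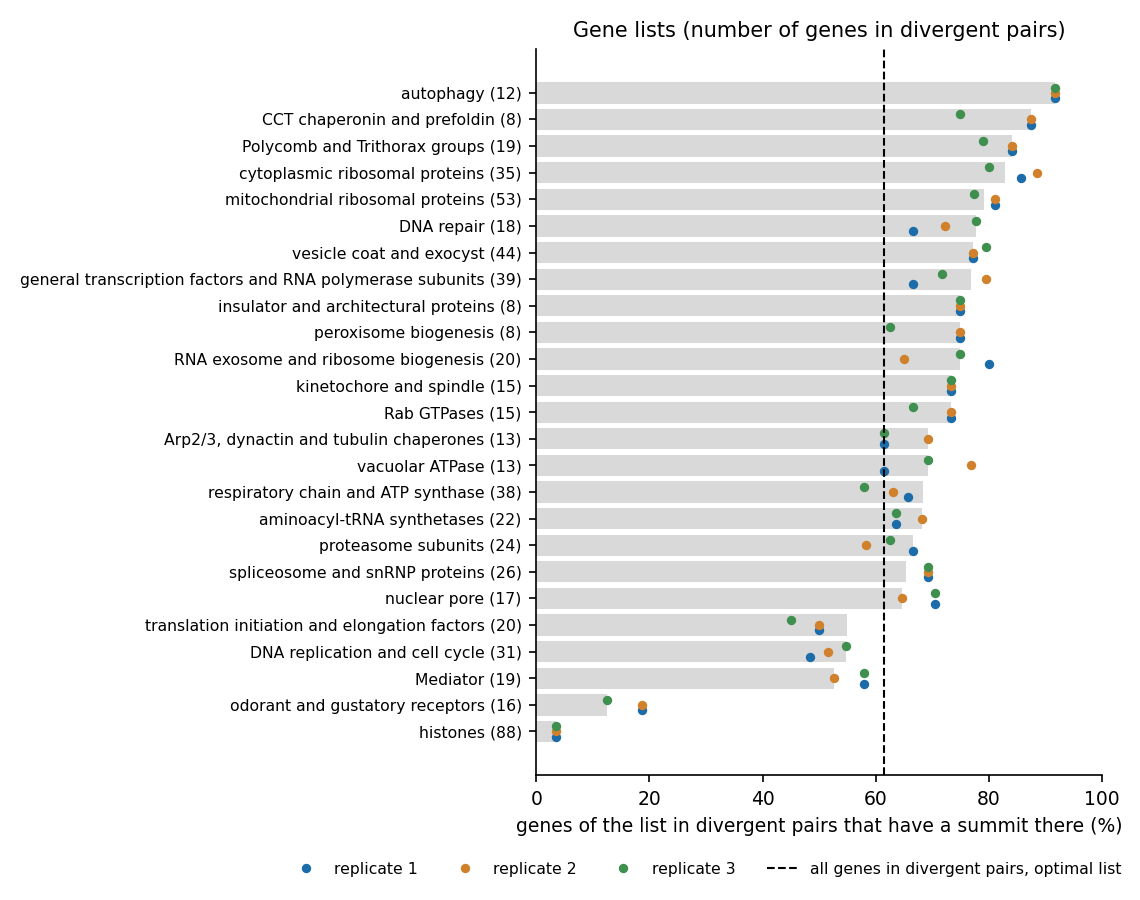
Share (%) of the genes of each list that are in divergent pairs and have a summit there, for lists with at least 8 such genes (number in brackets). Bars are the optimal list, points the strongest 8340 peaks of each replicate, and the dashed line is the 61.4% of all genes in divergent pairs. Autophagy is highest at 91.7% and histones lowest at 3.41%.

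Some gene families rarely had a summit between their genes. The list of odorant and gustatory receptor genes also took in ionotropic receptor genes such as Ir60e. Of its 180 genes only 16 are in divergent pairs. Of these 2 had a summit, Ir60e at 466.14 and Gr63a, a carbon dioxide receptor gene, at 237.78. Both Ir60e and Gr63a are paired with a gene outside the list. Cytochrome P450 genes had none in 6, and cuticle protein genes 1 in 3. Of 88 histone genes in pairs 3 (3.41%) had a summit, and these are genes outside the repeated cluster. They were His2Av, paired with the kinase gene ball, at 823.43 and ranks of 664, 705 and 582, His3.3A at 219.97 and His4r at 193.96. The repeated histone genes are near-identical copies, and whether reads could be placed there was not tested.

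Both genes belonged to the same list in 50 pairs, of which 42 were the repeated histone pairs. Of the other 8 pairs 1 held a summit, against 61.4% of all pairs, and the number is too small to compare. The exocyst and Golgi tethering genes Sec5 and Cog3 shared a summit of 723.95, with ranks of 960, 861 and 846. No optimal summit was found between the insulator genes Ibf1 and Ibf2, the RNA processing genes Rrp5 and Dis3, the small heat shock genes Hsp67Bc and Hsp22, the receptor genes Gr58a and Gr58b or Gr59e and Gr59f, the P450 genes Cyp6g2 and Cyp6t3, or the cuticle genes Cpr65Ax2 and Lcp65Aa.

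Taken as a set, known promoter motifs were at a larger share of the members than of other summits, while single motifs went either way. The 8 motifs, searched on both strands within 50 bp of the summit, were the DRE (TATCGATA), the core site of the insulator protein BEAF-32 (CGATA, which is part of every DRE), the Ohler motif 1 core (GGTCACAC), motif 6 core (GTATNTTT) and motif 7 core (CATCNCTA), the E-box (CAGCTG), the TATA box (TATAAA) and the GAGA motif (GAGAG). At least 1 was present at 62.2% of the members, 54.3% of other promoter summits and 43.2% of summits outside promoters. In windows centred 400 bp to either side of the members the shares were 33.2% and 34.6%. The rule holds the members near TSSs but not these windows, and its part in this contrast was not tested. In windows of the same length upstream of every protein coding TSS, the share was 59.5%.

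The DRE was at 101 of 1302 members (7.76%, exact 95% interval 6.36 to 9.35), with 7.997%, 7.30% and 6.99% in the replicates. It was at 4.61% of other promoter summits, 0.355% of summits outside promoters and 5.198% of windows upstream of all TSSs. The BEAF core site was at 33.2% of members, 24.7% of other promoter summits and 25.9% of windows upstream of all TSSs. The Ohler motif 7 core was at 5.68%, 3.97% and 2.35% of the same windows. GAGA ran the other way, at 7.07% of members, 10.9% of other promoter summits, 10.3% of summits outside promoters and 15.4% upstream of all TSSs. The TATA box was at 19.8%, 17.0%, 21.8% and 18.2% of the same windows. Its exact 95% interval at members was 17.7 to 22.1. This overlapped the intervals at other promoter summits (15.6 to 18.4) and at summits outside promoters (20.6 to 23.1).

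Members with a motif had a lower median signal than those without for 7 of the 8 motifs. The median signal was 249.09 with a DRE and 335.08 without, 264 with a BEAF core site and 367.12 without, and 197.9 with an Ohler motif 1 core and 335.16 without. It was 248.73 and 328.41 for the motif 6 core, 269.14 and 325.91 for the motif 7 core, 267.51 and 326.24 for the E-box, and 307.17 and 324.38 for GAGA. The TATA box was the exception, with 378.59 and 311.38.

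Pairs with and without a summit were compared at the same place, so that the position of a summit plays no part. At the midpoint of the TSSs, without the repeated pairs, a DRE was within 50 bp in 6.64% of 1204 pairs with a summit and in 6.60% of 712 pairs without, and a BEAF core site in 27.2% and 27.4%. The TATA box was in 25.2% of pairs with a summit (exact 95% interval 22.7 to 27.7) and 18.5% of those without (15.8 to 21.6). The Ohler motif 1 core was in 2.99% (2.10 to 4.12) and 5.06% (3.57 to 6.93). The shares were 8.55% and 7.58% for the motif 6 core, 3.16% and 1.97% for the motif 7 core, 7.39% and 9.41% for the E-box, and 6.73% and 7.44% for GAGA. The median GC content of that window was 29.7% with a summit and 35.6% without. The difference was -5.28 ± 0.572 percentage points (SD, n = 3) over the replicates, below 0 in 3 of 3 (exact sign-flip permutation test, two-sided, p = 0.25, the smallest possible). In the optimal list the difference over all pairs, -5.94 points, was larger than within any range of TSS distance. Pairs without a summit were more often close, with 320 of 712 at most 200 bp apart, against 417 of 1204 pairs with one. The motif shares at the midpoint were not split by distance. For TSSs 201 to 350 bp apart the medians were 25.7% and 29.7%, and for 351 to 500 bp 26.7% and 28.7%. For at most 200 bp both were 42.6%, with 43.6% and 41.6% in replicate 3. In that range the window reaches past the paired TSSs only where they are less than 100 bp apart. Whether base composition in itself changes how many reads a window gives was not tested.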

How the data were processed

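Peak lists of the dm6 build in narrowPeak format were used. They are the optimal list, which the authors thresholded by the irreproducible discovery rate of peaks, and the lists of the single replicates. The deposited text names 1 control for every sample. The tools for alignment and peak calling were not given in the sources used here. Between lists, the authors' signal value has no common scale, and it served as a value in the optimal list and as a rank elsewhere. The deposited −log10 q values were not used for ranking. Read counts were not used here and the depth is unknown. The dm3 lists were not used.

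TSSs are the transcript starts of protein coding genes in the Ensembl annotation of the release 6 genome (release 115), and sequence is from the RefSeq release 6 assembly. From each replicate the 8340 strongest peaks were taken, and summits within 100 bp counted as the same. Intervals are exact Clopper-Pearson intervals at 95% that cover counting error only. Differences measured once in each replicate were tested with the exact sign-flip permutation test. What separates the biological replicates is not stated, so the spread may be partly technical. Python 3.11.15, pandas 2.3.3, scipy 1.17.1 and pysam 0.24.0 were used, and the assignment of summits was tested on simulated summits.

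The members, the 29 gene lists, the motifs and the rules were chosen with earlier results of these data known. The lists are symbol patterns, and 4 were corrected after their matches were seen (mitochondrial import, RNA exosome, cuticle and histones). Named are the pairs of the 20 strongest and 5 weakest members, pairs with both genes in a list, the 3 leading genes of a list of which the text gives a part, and the pairs with most summits. List genes without a summit and the printed windows were chosen after their values were seen.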

Additional observations from a re-analysis of the deposited data

How the results depend on the processing

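No paired analysis was possible because there is only 1 group. The difference in bound share between genes in divergent pairs and other genes, and the difference in signal percentile to other promoters, kept their direction under every alternative run. The share of optimal peaks in divergent promoters, 15.6%, was 9.87% with TSSs at most 300 bp apart and 17.3% with 1000 bp, 8.11% with summits within 200 bp of each TSS and 16.9% within 1000 bp, 14.0% with gene 5' ends only, 20.3% in the upper 4170 peaks by signal, 17.2% in peaks found in all 3 replicates, and 16.5% to 16.8% without one replicate. The share of pairs with a summit, 61.4%, was in the same order 60.5%, 50.4%, 36.9% and 64.1%, then 43.1% in the upper 4170, 51.2% in all 3 replicates and 53.3% to 54.3% without one replicate, where fewer peaks remain, and, as settings added after seeing the data, 62.7% without the repeated histone pairs and 62.8% without these and the mod(mdg4) pairs. The share between the TSSs, 80.5%, was 68.7%, 82.8% and, within 1000 bp, 74.3%, then 77.5% with gene 5' ends, 79.0% with overlapping pairs counted, 82.9% in the upper 4170, 83.1% in all 3 replicates, 82.1% to 82.6% without one replicate and 89.3% for any qualifying pair. The median width difference, 0 bp, was -16.5 bp within 200 bp, 26.5 bp in the upper 4170, -14.5 bp in all 3 replicates and -46.5 to -38 bp without one replicate. The share with any motif, 62.2%, was 63.4% at 300 bp, 61.2% within 200 bp and within 1000 bp, 58.3% in the upper 4170, 59.9% in all 3 replicates, 59.9% to 60.8% without one replicate and 86.9% within 100 bp of the summit. The mean share found in a replicate, 90.0%, was 83.4% with summits within 50 bp, 93.8% within 200 bp, 95.1% with any overlap, 96.9% in the full lists and 71.0% in the strongest 5000. The cause of these shifts was not tested beyond what each setting changes by construction.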

Other observations

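The share of divergent pairs with a summit is given for each chromosome arm without the 42 repeated histone pairs, which are on 2L, and the 37 mod(mdg4) pairs, which are on 3R. On 3R 339 pairs (67.1%) held one, with 66.1%, 67.7% and 66.1% in replicates 1, 2 and 3, and on 2R 218 pairs (57.8%) did, with 54.9%, 58.9% and 53.6%. It was 64.2% of 346 pairs on 2L, 62.2% of 392 on 3L and 61.6% of 289 on X. With all pairs kept 2L was at 57.2% of 388 and 3R at 66.4% of 542, so the place of 2L in the order rests on the histone pairs. The small chromosome 4 held 7 pairs, of which 3 had a summit.

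Among the 8-base words that most exceeded windows 400 bp away, chosen after their counts were seen, were the DRE and ATCGATAG, which shares its letters with the DRE but for 1 base at each end. ATCGATAG was within 50 bp of 7.45% of member summits, 4.65% of other promoter summits and 0.355% of summits outside promoters, and of 0.538% and 0.768% of the windows 400 bp away. The other words listed were made of A and T. AAATAAAT was within 50 bp of 8.68% of member summits, 5.00% of other promoter summits and 5.83% of summits outside promoters. AATTTAAA was at 7.604%, 4.15% and 4.62%. The windows 400 bp away have a median GC content of 49.5% and 48.5%, against 34.7% at the members, and the part of composition in these counts was not tested.

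The strongest pairs with 2 summits after CG5611 and Mtl were CG3437 and CG3552, at 2524.2 and 255.81, the immune signalling gene imd and Dp1, at 1823.7 and 208.79, and Brf, a gene of an RNA polymerase III initiation factor, with sds22, at 1754.4 and 208.49. In Irbp18 and APP-BP1 both summits were strong. The first had 1394.7 with ranks of 231, 215 and 274, and the other 686.12 with ranks of 720, 1136 and 836. These 2 summits were deposited with the same peak start and end. So were those of CG5611 and Mtl, of CG3437 and CG3552, and of Brf and sds22. The summits of imd and Dp1 instead belong to different TSS pairs of these genes, with TSSs 452 bp apart for the stronger and 495 bp for the weaker.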
